A study of Mus musculus with 6 samples.

Results

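*Miat* is one of 8 long noncoding RNAs (lncRNAs) described here in mouse granulosa cells (GCs), beside *Malat1*, *Neat1*, *Gas5*, *Snhg1*, *Snhg12*, *Dancr* and *Kcnq1ot1*. The genes were taken by symbol from the 16300 genes of the deposited table, and all 8 had a mean normalized count of at least 10 and were tested. *Miat* was chosen by its rise with dihydrotestosterone (DHT), so its difference between groups is given as a description with no test. The other 7 were selected as reference RNAs on their abundance, so their levels are likewise a description. GCs line the follicle and support the oocyte, and DHT is a potent androgen that aromatase does not turn into estradiol. Primary GCs of wild-type C57BL/6J mice of 8 to 9 weeks were cultured with serum, starved of serum and then kept for 24 h in serum-free medium. The 3 control libraries came from cells given medium, and the 3 DHT libraries from cells given 25 nM DHT. Each library pooled the cells of 5 mice, so spread between single animals was not measured. The sample labels name whole ovary in the extraction text and DHT in the treatment text of every sample, and the groups follow the separate treatment characteristic.

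lncRNAs are RNAs that are transcribed, and often spliced and polyadenylated, without coding for a protein. *Miat*, also known as Gomafu, is a nuclear RNA best known from neurons, where it is spread through the nucleus in many small spots and holds repeats that bind the splicing factor SF1. *Malat1* is concentrated in nuclear speckles, the stores of splicing factors, and *Neat1* is the scaffold on which paraspeckles are built. *Gas5*, *Snhg1*, *Snhg12* and *Dancr* carry small nucleolar RNAs (snoRNAs) in their introns, and the spliced host RNA of the first of these is a textbook case of an RNA with a terminal oligopyrimidine (TOP) start that is removed by nonsense-mediated decay. *Kcnq1ot1* is a long unspliced antisense RNA of the paternal chromosome that silences neighbouring imprinted genes.

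The repeats of *Miat* are shown because they are the feature this RNA is best known for. The letters TACTAAC match the branch point that SF1 recognises, and they stood 6 times in the longest *Miat* transcript of GENCODE, *Miat-205*, of 9163 bases in 7 exons. All 6 copies were in exon 7, of 7008 bases, in 2 clusters of 3 copies. The clusters are at chr5:112217309-112217460 and chr5:112216752-112216812 of GRCm38, both on the minus strand, and are written 5′ to 3′ with the copies in capitals.
Miat, transcript bases 4931 to 5082: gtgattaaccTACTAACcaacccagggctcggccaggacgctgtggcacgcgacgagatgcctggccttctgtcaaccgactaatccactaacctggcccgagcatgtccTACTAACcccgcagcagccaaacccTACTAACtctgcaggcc
Miat, transcript bases 5579 to 5639: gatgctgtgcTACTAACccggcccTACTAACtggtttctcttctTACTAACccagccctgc

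**Figure D1:**
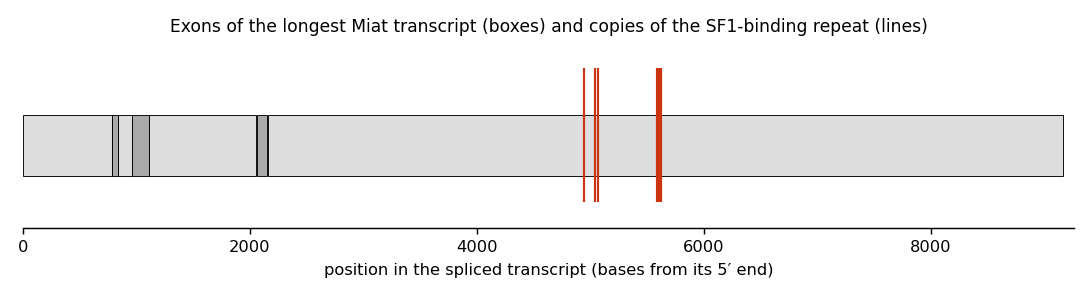
Exons of the longest *Miat* transcript as boxes along the spliced RNA, in bases from the 5′ end, with the 6 copies of the SF1-binding repeat as lines. The copies lie in 2 clusters between bases 4941 and 5623, all in exon 7.

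Over the longest transcript of each of 13359 lncRNA genes of GENCODE, read on the RNA strand, 4.59% held the 7 letters at least once. No gene had more copies than *Miat*, and 1 other gene, *AC154442.1*, also had 6. Those lay in 1389 bases (4.32 per kb), so *Miat* was not the highest per kb. *4930570G19Rik* and *9330158H04Rik*, with 2 copies each, had 0.643 and 0.630 per kb, close to *Miat*. *Kcnq1ot1*, with 93092 bases, held 4 copies (0.0430 per kb against 0.655 per kb in *Miat*), and *Neat1* held 1. None was found in the longest transcripts of *Malat1*, *Gas5*, *Snhg1*, *Snhg12* and *Dancr*. The 2 long *Miat* transcripts, of 9163 and 8758 bases, had 6 copies each, and the 4 short ones of 284 to 747 bases had 0.

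Promoters of RefSeq (GRCm38.p6, 250 bases before and 50 after a start site) were found for 7 of the 8 genes, all but *Neat1*, with 2 entries for *Gas5*. The *Miat* promoter is shown since the sample treatment was an androgen. It spans chr5:112228899-112229198 on the minus strand, inside the *Miat* gene of GENCODE.
Miat promoter: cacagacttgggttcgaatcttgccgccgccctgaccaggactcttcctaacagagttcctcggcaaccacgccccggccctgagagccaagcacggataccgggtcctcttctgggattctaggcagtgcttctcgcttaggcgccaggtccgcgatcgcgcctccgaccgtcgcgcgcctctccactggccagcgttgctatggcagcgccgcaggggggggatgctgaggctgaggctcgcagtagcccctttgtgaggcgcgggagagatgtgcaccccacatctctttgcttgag

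The full androgen response element, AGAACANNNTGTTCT, which reads the same on both strands, was in none of the 8 member entries and in 0.00913% of the 32851 promoter entries. Its half-site, AGAACA or TGTTCT on the other strand, was in 19% of all entries. The *Miat* promoter held 0 half-sites, and *Snhg1* and *Dancr* held 1 each. These letters say nothing of sites outside the windows.

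The start sites of the snoRNA hosts are shown for their TOP starts, from 10 bases before to 20 bases from the start site. A TOP-like start was searched as a C with 4 further pyrimidines beginning within 10 bases of the start site, and where one was found the run of pyrimidines is in capitals.
Gas5, chr1:161035156-161035185, plus strand: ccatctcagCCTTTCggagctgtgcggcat
Snhg12, chr4:132308668-132308697, plus strand: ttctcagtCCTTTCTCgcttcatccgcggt
Snhg1, chr19:8723477-8723506, plus strand: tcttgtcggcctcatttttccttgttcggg
Dancr, chr5:74093050-74093079, plus strand: ctcggggggggggggcagctccgcccctct
Such a start was present in 1 of the 2 *Gas5* entries and in *Snhg12*, and it was in 30.7% of all promoter entries. It was also present in the *Miat* promoter.

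Between 36111177 and 41928585 reads were counted on genes per library. The values used are normalized counts, the reads divided by a size factor per library, and a fold change is on the scale of log2(normalized count + 1), which understates the change of low genes. A gene passed at an adjusted p of at most 0.05, from limma's moderated test over 16292 genes with Benjamini-Hochberg adjustment, and was called where the absolute log2 fold change was also above 1. At 3 against 3, the smallest p that the exact permutation test of a single gene allows is 0.1.

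*Miat* (ENSMUSG00000097767, a lincRNA at chr5:112213228-112229395 on the minus strand of GRCm38) was higher in every DHT library than in any control library. Its normalized counts were 22.8, 26.9 and 19.5 in control replicates 1, 2 and 3, and 122, 146 and 211 in DHT replicates 1, 2 and 3. The lowest DHT library was thus far above the highest control library, and the third DHT library was the highest of the 6. The means were 23.1 ± 3.76 (SD, n = 3) and 160 ± 46.0 (SD, n = 3), a 6.93-fold ratio. On the log2 scale the difference was 2.72, with a standard error (SE) of 0.23. In reads, the control values stand on 23, 29 and 21 and the DHT values on 125, 134 and 194. This contrast chose *Miat*, and nothing is read from it beside the share of all genes called higher, 0.908%, or that of all genes whose DHT libraries lay wholly above the control libraries, 15.9%. In bulk RNA, more cells that hold a transcript and more of it per cell cannot be told apart.

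**Figure D2:**
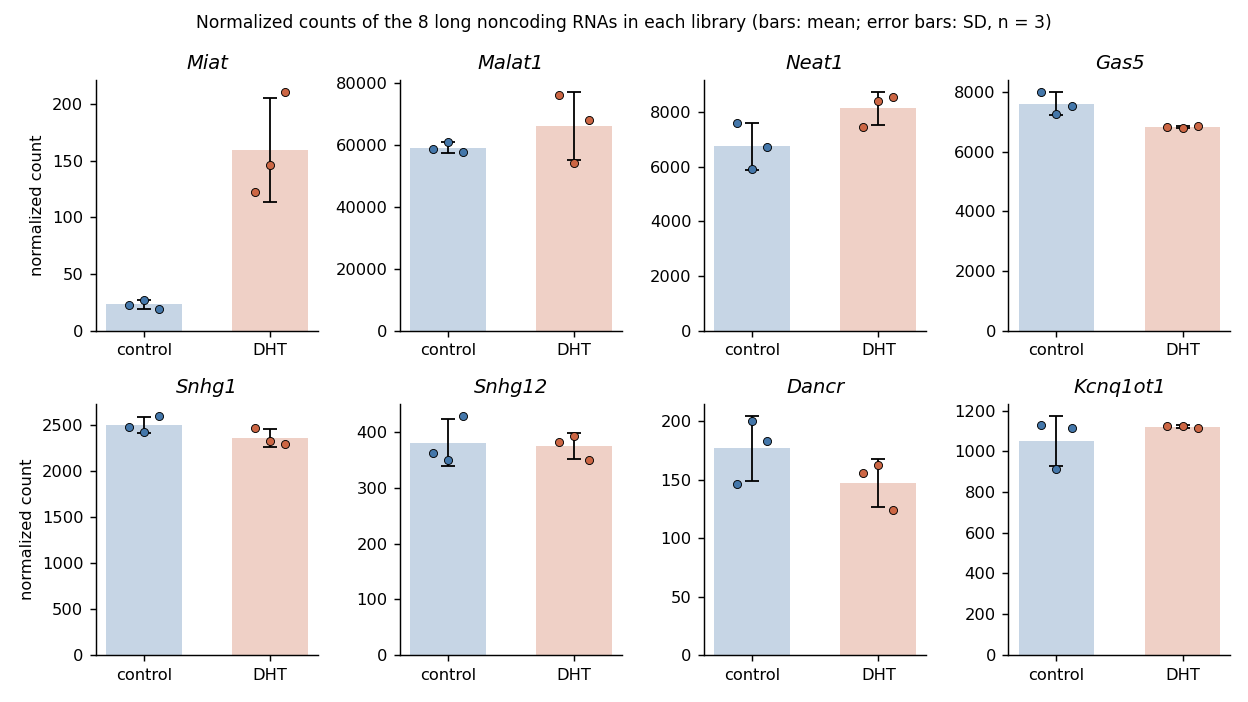
Normalized counts of the 8 lncRNAs in the 3 control and 3 DHT libraries, with points for libraries, bars for means and error bars for the SD (n = 3), each panel on its own linear axis from 0. The *Miat* libraries of the groups are far apart (19.5 to 26.9 against 122 to 211), those of *Gas5* are separate by a small margin, and those of the other 6 genes overlap.

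Per kilobase of exon, *Miat* was the lowest of the 8 in control cells, so the name of an abundant RNA does not hold for it. The mean level in control cells, in normalized counts per kb, was 8456 ± 248 for *Malat1*, 2024 ± 102 for *Gas5*, 842 ± 30.4 for *Snhg1* and 325 ± 41.1 for *Neat1* (SD, n = 3). *Snhg12* followed with 159 ± 17.6, *Dancr* with 75.4 ± 11.8, *Kcnq1ot1* with 11.3 ± 1.31 and *Miat* with 2.48 ± 0.404. No neighbours in that order overlapped between their control libraries. In DHT libraries the order was the same but for its end, where *Miat* (13.2 to 22.7 per kb) stood above *Kcnq1ot1* (11.9 to 12.1 per kb). *Malat1* was 3409 times *Miat* per kb in control cells and 550 times in DHT-treated cells. Among the 1762 lncRNA genes of the table, *Malat1* ranked 3 and *Gas5* 8 per kb in both groups. *Snhg1* ranked 22 in control and 21 in DHT libraries, *Neat1* 48 and 39, *Snhg12* 89 and 99, and *Dancr* 240 and 295. *Kcnq1ot1* ranked 1188 and 1152, and *Miat* 1729 and 936. The last 2 were below the median tested lncRNA gene in both groups (18.9 per kb in control and 18.8 in DHT libraries). By mean count over the 6 libraries, without regard to length, *Kcnq1ot1* ranked 42 and *Miat* 355 among the lncRNA genes. The mean counts of *Snhg12* (381 in control and 375 in DHT libraries) and *Dancr* (177 and 147) were, like those of *Miat*, below 696, the median over all genes.

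**Figure D3:**
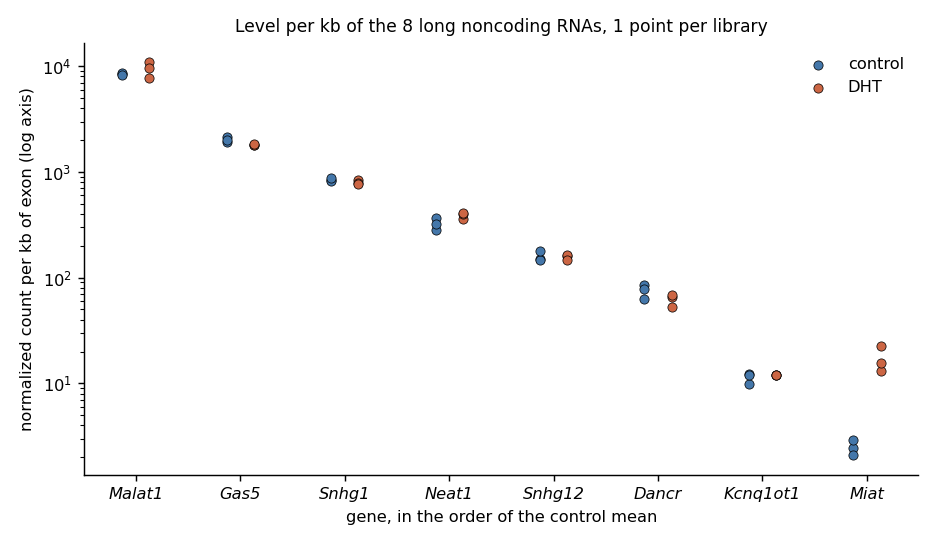
Normalized count per kb of exon on a log axis, 1 point per library, for the 8 lncRNAs in the order of their control means. *Miat* moves from 2.09 to 2.90 per kb in control libraries to 13.2 to 22.7 in DHT libraries, past *Kcnq1ot1*, and the other genes keep their places.

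The 2 nuclear body RNAs, *Malat1* and *Neat1*, did not pass the test. *Malat1* (chr19:5795690-5802672) had 58707, 60923 and 57515 normalized counts in control libraries and 76056, 54138 and 67870 in DHT libraries. The DHT libraries held both the lowest and the highest value, and their coefficient of variation was 16.8% against 2.93% in control cells. The log2 fold change was 0.15 (SE 0.11, 95% confidence interval -0.09 to 0.39), with an adjusted p of 0.434 by limma and an exact permutation p of 0.4. Single DHT libraries moved this value, to 0.038 without DHT replicate 1 (adjusted p = 0.848 by limma) and to 0.28 without DHT replicate 2 (adjusted p = 0.0541 by limma). *Malat1* had the highest mean count of any lncRNA gene over the 6 libraries, although *Gm42418* was above it in DHT replicate 3, and took 73.7% to 80.4% of the summed counts of the 8 genes.

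*Neat1* (chr19:5824708-5845478, on the same strand close by) had 7611, 5902 and 6729 normalized counts in control libraries and 7436, 8400 and 8560 in DHT libraries. Only the first libraries of each group overlapped. The log2 fold change was 0.27 (SE 0.09, 95% confidence interval 0.08 to 0.47), with an adjusted p of 0.0840 by limma and an exact permutation p of 0.2. Without control replicate 1 the gene passed (log2 fold change 0.36, adjusted p = 0.0190 by limma), and without control replicate 2 the log2 fold change was 0.18 (adjusted p = 0.207 by limma).

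Genes for the proteins of these bodies mostly did not pass. Of 14 paraspeckle proteins tested, 0 passed, with log2 fold changes from -0.17 (*Hnrnph3*) to 0.09 (*Dazap1*) and a median of -0.01. *Nono* and *Sfpq*, the core proteins that bind *Neat1*, had log2 fold changes of -0.01 and -0.09. Of 15 nuclear speckle proteins, 1 passed, the splicing factor *Srsf3*, with 9474, 10135 and 10100 normalized counts in control libraries and 11659, 10763 and 11238 in DHT libraries (log2 fold change 0.18, adjusted p = 0.0308 by limma). It did not pass without control replicate 1 or 2, or DHT replicate 1 or 3, and the adjusted p was at most 0.126 by limma over the settings tried. Over all genes tested, 6.52% passed as higher and 4.66% as lower, and the median log2 fold change was -0.01. *Sf1*, whose protein binds the repeats of *Miat*, had a log2 fold change of 0.06, and *Srsf1* and *Celf3*, also reported as partners of *Miat*, had 0.04 and 0.02. None of these 3 passed.

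Of the 4 snoRNA hosts, *Gas5* fell slightly, beside 4.66% of all genes that passed as lower, and the other 3 did not pass. *Gas5* (chr1:161034422-161038539, plus strand) had 8021, 7263 and 7549 normalized counts in control libraries and 6837, 6787 and 6878 in DHT libraries. Every DHT library was below every control library, as for 14.7% of all genes tested, and the coefficient of variation was 0.663% in DHT libraries against 5.03% in control libraries. The mean fell by 10.2%, a log2 fold change of -0.15 (SE 0.04, 95% confidence interval -0.25 to -0.06), with an adjusted p of 0.0477 by limma and an exact permutation p of 0.1. The adjusted p is close to the threshold. Without control replicate 1 or 3 or any 1 of the DHT libraries the adjusted p by limma was between 0.0635 and 0.162, with log2 fold changes between -0.16 and -0.12.

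*Snhg1* (chr19:8723475-8726443) had 2482, 2421 and 2599 normalized counts in control libraries and 2473, 2328 and 2290 in DHT libraries, with a log2 fold change of -0.08 (95% confidence interval -0.19 to 0.02, adjusted p = 0.314 by limma). *Snhg12* (chr4:132308623-132311024) had 363, 350 and 429 against 382, 394 and 349, with a log2 fold change of -0.02 (95% confidence interval -0.24 to 0.20, adjusted p = 0.932 by limma), which turned to 0.031 without DHT replicate 3 and 0.070 without control replicate 3. *Dancr* (chr5:74093060-74095406) had 146, 201 and 183 against 156, 163 and 124, with a log2 fold change of -0.26 (95% confidence interval -0.61 to 0.09, adjusted p = 0.343 by limma). In all 3 the groups overlapped, and the interval of *Dancr* is the widest of the 7 reference genes. Exact permutation p-values were 0.2, 0.8 and 0.3. The log2 fold change of *Snhg1* was -0.053 without control replicate 3, and that of *Dancr* was -0.14 without DHT replicate 3 and -0.16 without control replicate 2.

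Of 15 other snoRNA hosts tested, 1 passed as higher, near the 6.52% of all genes, *Snhg14*, the long host transcript of the Prader-Willi region, with 414, 385 and 452 normalized counts in control libraries and 507, 490 and 519 in DHT libraries (log2 fold change 0.28, adjusted p = 0.0497 by limma). It passed in 5 of 14 other settings, with a highest adjusted p of 0.165 by limma. It did not pass without any 1 of the DHT libraries and without control replicate 1 or 2. The median of the 15 was 0.02. *Snhg9* had 25.7, 17.7 and 12.97 normalized counts in control libraries against 6.85, 5.45 and 9.79 in DHT libraries, without overlap, and an adjusted p of 0.0619 by limma. *Snhg3*, also without overlap, had a log2 fold change of -0.33 (adjusted p = 0.136 by limma). *Epb41l4aos* was higher without overlap, with 268, 262 and 275 against 281, 310 and 304 (adjusted p = 0.297 by limma). The groups thus did not overlap in 2 of the 15 as lower and, with *Snhg14*, 2 as higher, near the 14.7% and 15.9% of all genes.

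The machinery around these hosts was listed too. Of 8 core proteins of snoRNA particles, 0 passed, with log2 fold changes from -0.07 (*Nhp2*) to 0.08 (*Fbl*, the methyltransferase of box C/D particles). Of 10 nonsense-mediated decay factors, 0 passed. The DHT libraries lay wholly below the control libraries in 3 of them, *Upf3b* (log2 fold change -0.13), *Smg1* (-0.12) and *Upf2* (-0.11), beside 14.7% of all genes, and wholly above in 1, *Smg5* (0.10), beside 15.9%. The helicase *Upf1* had a log2 fold change of -0.08. Of 16 other mRNAs with TOP starts, such as those of translation factors, 1 passed as lower, near the 4.66% of all genes, the intermediate filament gene *Vim* (log2 fold change -0.22, adjusted p = 0.0274 by limma). Without any 1 of the 3 DHT libraries, or without control replicate 2 or 3, *Vim* did not pass. The elongation factors *Eef1a1* and *Eef2* had log2 fold changes of 0.01 and 0.03.

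*Gas5* RNA is also known to bind the DNA-binding domain of steroid receptors. Among the receptor genes listed for this, the progesterone receptor gene *Pgr* fell from 25.7, 31.6 and 25.9 normalized counts in control libraries to 8.81, 8.73 and 11.97 in DHT libraries. Its log2 fold change was -1.42 (SE 0.27, adjusted p = 0.00997 by limma), and 0.399% of all genes were called lower. The glucocorticoid receptor gene *Nr3c1* fell from 1164, 1078 and 1211 to 1019, 971 and 963 (log2 fold change -0.22, adjusted p = 0.0371 by limma). It did not pass without any 1 of the DHT libraries and without control replicate 1 or 3. *Nr3c2*, the mineralocorticoid receptor gene, had a log2 fold change of 0.19 and did not pass. In *Pgr* and *Nr3c1* every DHT library was below every control library, as for 14.7% of all genes, and 4.66% of all genes passed as lower.

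*Kcnq1ot1* (chr7:143203458-143296549, minus strand) had 1130, 911 and 1113 normalized counts in control libraries and 1125, 1125 and 1112 in DHT libraries. The 3 DHT values and 2 of the control values were within a narrow range, and control replicate 2 was low. The log2 fold change was 0.10 (SE 0.08, 95% confidence interval -0.08 to 0.28), with an adjusted p of 0.491 by limma and an exact permutation p of 0.7. Without control replicate 2 it was -0.00065, and without control replicate 1 it was 0.15.

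Of 12 genes listed for the *Kcnq1ot1* domain, 8 were in the table (not *Slc22a18*, *Phlda2*, *Ascl2* and *Th*). Of these 8, 3 fell, beside 4.66% of all genes that passed as lower. The same 3 and *Nap1l4* (log2 fold change -0.10, not passed) were lower without overlap, 4 of the 8 beside 14.7% of all genes. In 0 of the 8 were the groups apart as higher, beside 15.9%, while *Osbpl5* had a log2 fold change of 0.12 and did not pass. *Trpm5*, a cation channel gene, went from 239, 264 and 233 normalized counts in control libraries to 182, 169 and 162 in DHT libraries (log2 fold change -0.52, adjusted p = 0.0111 by limma). *Tssc4* went from 1558, 1646 and 1452 to 1283, 1239 and 1216 (log2 fold change -0.32, adjusted p = 0.00717 by limma). *Cd81*, a tetraspanin gene, went from 21323, 22661 and 22357 to 20186, 19611 and 19752 (log2 fold change -0.16, adjusted p = 0.0332 by limma). *Trpm5* missed the threshold without DHT replicate 3 (adjusted p = 0.0531 by limma), and *Cd81* missed it without any 1 of the DHT libraries or control replicate 2 or 3. The growth inhibitor *Cdkn1c*, a textbook target of *Kcnq1ot1*, was low, with 37.6, 45.5 and 58.4 against 54.8, 34.9 and 31.6, and *Kcnq1* itself had 37.6, 28.8 and 12.04 against 34.2, 16.4 and 22.9. Neither passed. The median of the 8 was -0.20, beside -0.01 for all genes.

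lncRNA genes as a class had low counts. Of 1760 tested, 41 (2.33%) passed as higher and 28 (1.59%) as lower, and 16 (0.909%) and 7 (0.398%) were called. The 16 include *Miat*, which was chosen by this contrast and adds nothing to the count as a finding. Protein-coding genes passed more often, 7.38% higher and 5.28% lower, while 0.945% and 0.400% were called. The median lncRNA gene had a mean of 30.8 normalized counts and an SE of 0.26 on the log2 scale, against 1036 and 0.07 for protein-coding genes. The counts of called lncRNA genes depended on single libraries. The 16 higher calls became 5 without DHT replicate 2 or 3, 10 without DHT replicate 1 and 9 without control replicate 2. The 7 lower calls became 1 without DHT replicate 3 and 3 without control replicate 1.

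**Figure D4:**
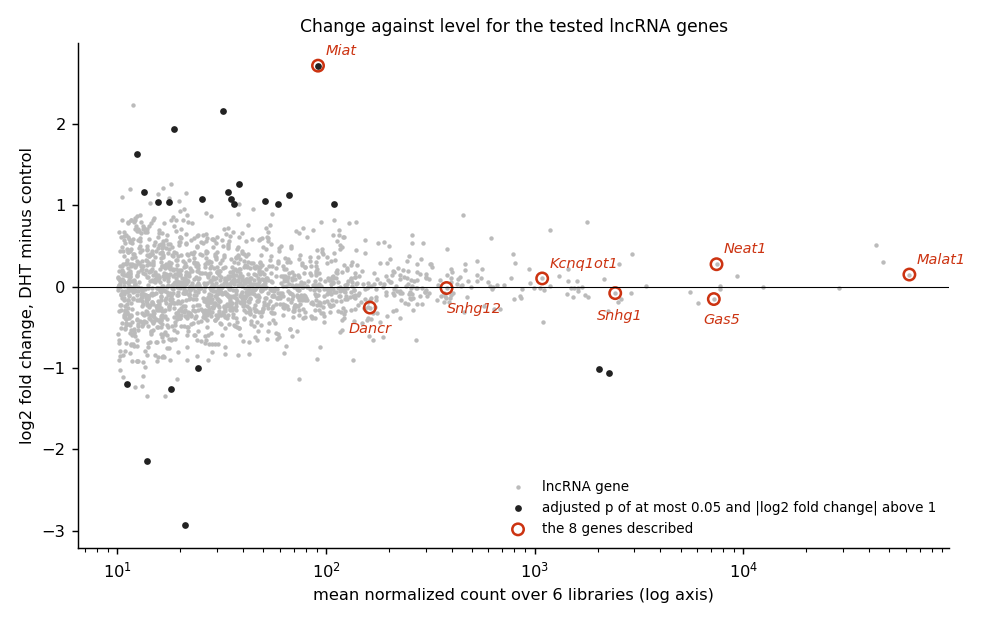
Log2 fold change (DHT minus control) against the mean normalized count over 6 libraries, on a log axis, for the 1760 tested lncRNA genes, with called genes in black and the 8 genes described in red rings. *Miat*, chosen by its rise, is at 2.72, and the other 7 genes lie between -0.26 and 0.27 at higher counts.

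Beside *Miat*, the largest rises among called lncRNA genes were those of *4930447F24Rik* (log2 fold change 2.16, SE 0.32), *Gm43221* (1.94, SE 0.49), *Gm11216* (1.63, SE 0.32) and *5830432E09Rik* (1.26, SE 0.23). *4930447F24Rik* (chr9:108133718-108138567) had 13.9, 9.29 and 9.26 normalized counts in control libraries and 32.3, 61.1 and 66.4 in DHT libraries (adjusted p = 0.00327 by limma), and it passed in all 13 other settings that held it. *Gm43221* passed in 5 of 13, and its control libraries ranged from 2.97 to 16.7. It did not pass without any 1 of the DHT libraries and without control replicate 1 or 2, and *Gm11216* did not pass without DHT replicate 2. The largest falls were those of *Gm17641* (log2 fold change -2.93, SE 0.36), *5330411J11Rik* (-2.15, SE 0.55), *Gm4316* (-1.26, SE 0.32), *Gm43307* (-1.20, SE 0.31) and *Meg3* (-1.07, SE 0.16). *Gm17641* (chr3:68867917-68870266) had 46.5, 39.0 and 28.7 normalized counts in control libraries and 2.94, 6.55 and 3.26 in DHT libraries (adjusted p = 0.00111 by limma), and it passed in all 13 other settings. *5330411J11Rik*, *Gm4316* and *Gm43307* passed in 7, 6 and 5 of 13. The first did not pass without DHT replicate 2 or 3 or control replicate 1 or 2, the second without any 1 library but DHT replicate 2, and the third without any 1 of the 6.

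Among the lncRNA genes called lower, *Meg3* and *Rian* had the highest counts. Both are maternally expressed RNAs of the imprinted Dlk1-Dio3 cluster on chromosome 12. *Meg3* had 2726, 2707 and 3778 normalized counts in control libraries and 1812, 1413 and 1183 in DHT libraries (log2 fold change -1.07, adjusted p = 0.00358 by limma). *Rian* had 2148, 2490 and 3595 against 1643, 1219 and 1152 (log2 fold change -1.02, SE 0.18, adjusted p = 0.00842 by limma). In both genes the groups were separate, and both passed whichever library was left out. The log2 fold change came inside -1, so that the call was lost, without control replicate 3 or DHT replicate 3 for *Meg3* (up to -0.91) and also without DHT replicate 2 for *Rian* (up to -0.81). *Mirg*, the third RNA of that cluster, was lower without overlap (43.5, 48.3 and 55.6 against 25.4, 40.4 and 27.2) but did not pass (adjusted p = 0.105 by limma). *Peg13* was higher without overlap (1964, 2513 and 2448 against 2989, 2705 and 2629) and did not pass (adjusted p = 0.0954 by limma). Of 21 other named lncRNAs tested, 3 passed, all lower, beside 4.66% of all genes: *Meg3*, *Rian* and *Airn*, the antisense RNA of *Igf2r*. The groups did not overlap in 5 of the 21 as lower and 2 as higher, beside 14.7% and 15.9% of all genes. *Airn* had a log2 fold change of -0.82 (adjusted p = 0.0447 by limma) and passed in 8 of 14 other settings. It missed the threshold without control replicate 1 or 2 or DHT replicate 1 or 3. The median of the 21 was -0.02, and *Xist*, *Tug1* and *Firre* had log2 fold changes of -0.02, -0.07 and 0.01.

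Only 2 lncRNA genes had more counts per kb than *Malat1*, and both were looked at after their values were seen. *AU020206* had 42239, 40136 and 43317 normalized counts in control libraries and 50482, 51658 and 52456 in DHT libraries (log2 fold change 0.30, SE 0.04). *Gm42418*, a gene model known to collect reads of ribosomal RNA, had 25872, 42166 and 37112 against 36078, 43616 and 74044, highest in DHT replicate 3, the library in which *Miat* was also highest. It was also highest among the control libraries where *Miat* was, in replicate 2, but its groups overlapped while those of *Miat* did not. Its part in the values of *Miat* was not tested.

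The genes whose log2 values over the 6 libraries were most like those of *Miat* were *Isyna1* (Pearson r = 0.9997), *Arhgap15os*, *Rassf4*, *Dusp18* and *Fam78a*. They share the difference between the groups, and 497 genes had an r above 0.95, so the measure singles out little. *Rassf4* had 368, 386 and 346 normalized counts in control libraries and 570, 607 and 680 in DHT libraries. After the group means were taken away, the nearest were *Rpl17*, *Cdc42se1*, *Tomm40*, *Rassf4* and *Dock8*, and 168 genes had an r above 0.95. *Rassf4* was the only gene in both lists of 5. Of the 7 reference RNAs, *Neat1* had the highest r with *Miat* after that step, 0.145, and *Snhg1* the lowest, -0.887. All these values come from 6 libraries with a common scaling and are a description.

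Within 500 kb of *Miat* GENCODE places 31 other genes, 12 of them protein-coding, and 9 were in the table, all on the side upstream of its start. In the nearest 3, as in *Srrd* farther out, every DHT library was above every control library, which makes 4 of 9, beside 15.9% of all genes. *Cryba4*, a lens crystallin gene with its start site 23123 bases from that of *Miat*, had 44.5, 39.96 and 29.6 normalized counts in control libraries and 70.5, 68.7 and 70.7 in DHT libraries (log2 fold change 0.88, SE 0.19, adjusted p = 0.0209 by limma). *Crybb1*, a second crystallin gene at 26420 bases, had 20.8, 26.9 and 13.9 against 33.3, 36.0 and 51.1, without overlap, and did not pass (log2 fold change 0.96, SE 0.29, adjusted p = 0.0722 by limma). *Tpst2*, a tyrosylprotein sulfotransferase gene at 47296 bases, had 3735, 3710 and 3254 against 4021, 4511 and 5052 (log2 fold change 0.34, SE 0.08, adjusted p = 0.0309 by limma). *Cryba4* did not pass without any 1 of the DHT libraries, and *Tpst2* without DHT replicate 2 or 3 or control replicate 2 or 3.

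**Figure D5:**
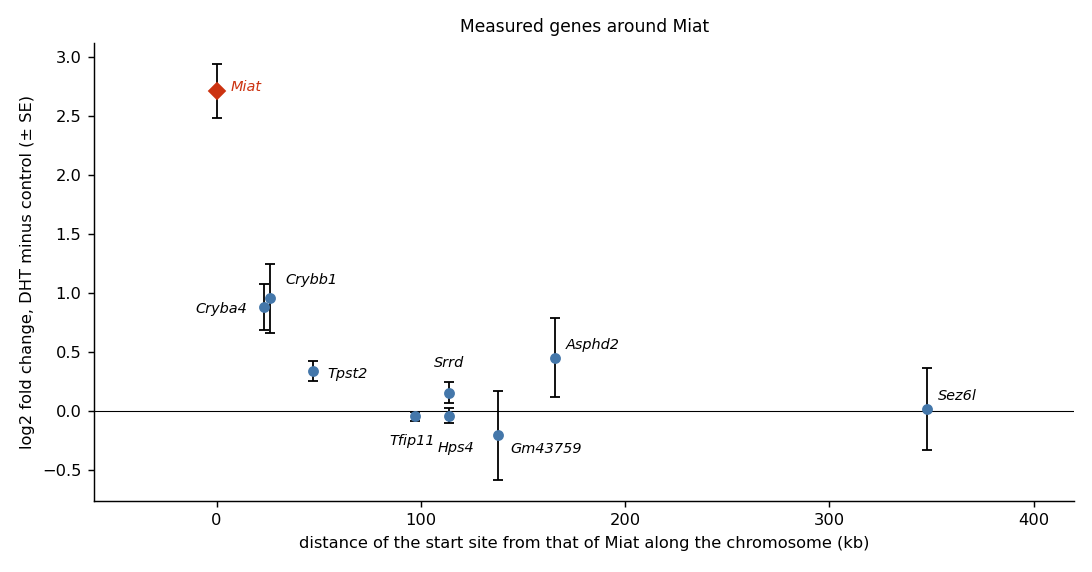
Log2 fold change (DHT minus control, error bars ± SE) of *Miat* and of the 9 measured genes around it, against the distance of their start sites from that of *Miat* in kb. *Cryba4*, *Crybb1* and *Tpst2*, the nearest, are at 0.88, 0.96 and 0.34, and the other 6 lie between -0.21 and 0.45.

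Farther out, *Tfip11*, *Hps4* and *Srrd* had log2 fold changes of -0.04, -0.04 and 0.16, and *Gm43759*, *Asphd2* and *Sez6l* had -0.21, 0.45 and 0.02 with SEs of 0.33 to 0.38. None of these 6 passed. In all, 2 of the 9 passed as higher and 0 as lower, beside 6.52% and 4.66% of all genes.

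Whether the reads were counted by strand is not given in the sources used here, so genes on opposite strands cannot be told apart. *Gm26953*, a lincRNA on the other strand, covers 2260 bases of *Miat* exons, 24.3% of them, and was not analysed here. *Gm37376* lies opposite 453 bases of *Malat1*. *Kcnq1* shares 121 bases of exon with *Kcnq1ot1* on the other strand. Exons of *Gas5*, *Snhg1*, *Snhg12* and *Dancr* in GENCODE overlap 10, 8, 5 and 1 snoRNA genes on the same strand. Of these snoRNA genes, only *Snora16a* in *Snhg12* was in the table, with 17.8, 10.2 and 20.4 normalized counts in control libraries and 11.7, 14.2 and 14.1 in DHT libraries.

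The libraries carried most markers of GCs. Of 10 GC markers, 9 were in the table (not *Cyp19a1*), with summed normalized counts of 201222 to 217592 in control libraries and 215045 to 235096 in DHT libraries, most of it *Cyp11a1*, *Inha* and *Inhba*. *Fshr* (135 to 168 over the 6 libraries) and *Amh* (63.3 to 196) were below 696, the median over all genes of the mean normalized count. *Hsd17b1* and *Cyp11a1* rose and *Inha* and *Foxl2* fell, 2 of 9 each way beside 6.52% and 4.66% of all genes. *Cyp11a1* missed the threshold without DHT replicate 2 or 3, and *Foxl2* without any 1 of the DHT libraries or control replicate 1 or 2. With TMM scaling *Foxl2* missed it too. Since *Miat* is known from neurons, neuronal markers were listed. Of 10, 9 were in the table (not *Nefl*), with sums of 3018 to 3855 in control libraries and 3307 to 3719 in DHT libraries, most of it *Tubb3*. *Rbfox3*, a defining marker, had 62.3 to 92.9 and 72.4 to 88.4 (log2 fold change -0.02). *Stmn2* rose from 23.7, 19.5 and 45.4 to 86.1, 62.2 and 63.1 (log2 fold change 1.30, adjusted p = 0.0272 by limma), but did not pass without any 1 of the DHT libraries or control replicate 1 or 2, and the other 8 did not pass. This makes 1 of 9 that passed as higher, beside 6.52% of all genes. *Nefm*, a neurofilament gene, had 44.5, 57.6 and 25.0 against 22.5, 16.4 and 17.4, lower without overlap (log2 fold change -1.07, adjusted p = 0.0652 by limma). *Snap25*, a synaptic vesicle fusion gene, had 36.6, 36.2 and 42.6 against 47.9, 56.7 and 51.1, higher without overlap (log2 fold change 0.42, adjusted p = 0.180 by limma). The groups did not overlap in 2 of the 9 as higher and 1 as lower, beside 15.9% and 14.7% of all genes.

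Markers of other ovarian cells were at lower sums than those of GCs. Theca and stroma markers (6 of 8 in the table, without *Cyp17a1* and *Insl3*) summed to 3139 to 3153 in control and 2556 to 2953 in DHT libraries, and none passed. The log2 fold changes of these 6 were all negative, from -1.05 (*Dcn*) to -0.13 (*Col1a1*), with a median of -0.31, and *Nr2f2* was lower without overlap (log2 fold change -0.17, adjusted p = 0.0717 by limma). Endothelial markers (4 of 7) summed to 150 to 179 and 141 to 199, and none passed. *Tek* was lower without overlap, with 49.5, 32.5 and 38.9 against 29.4, 29.5 and 30.5 (log2 fold change -0.40, adjusted p = 0.286 by limma). Macrophage and leukocyte markers (6 of 8) summed to 497 to 580 and 375 to 627, and 1 of the 6 passed as lower, beside 4.66% of all genes, *Csf1r* (log2 fold change -0.64, adjusted p = 0.0270 by limma; 0.101 at most in other settings). The pan-leukocyte gene *Ptprc* was higher without overlap, with 5.94, 8.36 and 11.1 against 15.7, 12 and 15.2 (log2 fold change 0.72), and did not pass (adjusted p = 0.215 by limma). *Csf1r* missed the threshold without control replicate 1 or DHT replicate 2 or 3. The groups did not overlap as lower in 1 of 6 theca and stroma, 1 of 4 endothelial and 1 of 6 leukocyte markers, beside 14.7% of all genes. As higher they were separate in *Ptprc* alone of these markers, beside 15.9% of all genes. Oocyte markers (7 of 8) varied most, with sums of 355 to 834 and 108 to 617, and DHT replicate 2 had 0 to 2.18 normalized counts of *Zp1*, *Zp2*, *Zp3*, *Oosp1* and *Bmp15*. *Miat* was not lowest there, with 146 against 122 in DHT replicate 1. The part of any of these cells in the results was not tested.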

How the data were processed

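RNA-seq was done on 6 libraries of primary mouse GCs, 3 control and 3 with DHT. Trimming was with Trimmomatic 0.36, mapping to GRCm38 with STAR 2.5.2b, and counting of uniquely mapped exonic reads with featureCounts of Subread 1.5.2. The deposited signal per gene is a normalized count, in which the authors scaled reads by library size factors from DESeq2. Every value was a whole multiple of 1 step per library (100% of 16300 values, within 0.01), and reads are those multiples. The authors' own log2 fold changes and p-values, also deposited, and a second table holding a subset of its genes, were not used. Strand setting, RNA selection and annotation release are not given in the sources used here.

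The 8 genes, the gene lists and the tests were chosen with earlier results of these data known. limma 3.58.1 in R 4.3.3 was fitted with an intensity trend to log2(normalized count + 1) of genes with a mean of at least 10, without a block, and p-values were adjusted by Benjamini-Hochberg over the 16292 genes. Groups follow the treatment characteristic. p-values measure only the spread between these 3 pools per group. Positions, classes and exonic lengths came from GENCODE M21 on GRCm38. Its lncRNA file, which defines the class here, holds 422 of the 1762 genes as TEC, loci of uncertain status. Beside the 8 genes, the text names list genes that were called or had small adjusted p, the 5 largest rises and 5 largest falls among called lncRNA genes without overlap, genes most like *Miat* and genes near or overlapping the 8, and some list members for their known role or direction, chosen after their values were seen. On simulated data for 16123 genes, limma recovered 94.5% of 200 genes changed by 1.5 on the log2 scale with 0 false calls. The spread of the simulated counts was assumed and not estimated from these libraries, so these rates do not carry over to the real calls. Other settings were pseudocounts of 0.5 and 8, no filter, a higher minimum (mean of 50), TMM scaling, quantile normalization, no trend, a replicate block and each library left out. The smallest mean in the deposited table was 10.17 reads, and 16292 of its 16300 genes were tested. The setting without a filter could thus move little. One gene of a list is not reported here.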

Additional observations from a re-analysis of the deposited data

How the results depend on the processing

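The log2 fold change of *Miat* lay between 2.41 and 2.89 over 14 other settings, and those of *Malat1*, *Neat1*, *Gas5*, *Snhg1* and *Dancr* also kept their direction. Leaving out 1 library at a time gave 2.497 to 2.89 for *Miat*, 0.04 to 0.28 for *Malat1*, 0.18 to 0.36 for *Neat1* (adjusted p by limma 0.0190 without control replicate 1), -0.19 to -0.12 for *Gas5* (adjusted p 0.0331 to 0.162), -0.11 to -0.05 for *Snhg1*, -0.39 to -0.14 for *Dancr*, -0.076 to 0.070 for *Snhg12* and -0.00065 to 0.15 for *Kcnq1ot1*. *Snhg12* turned to 0.03 without DHT replicate 3 and 0.070 without control replicate 3, and *Kcnq1ot1* turned without control replicate 2. *Gas5* missed the threshold with no trend (-0.15, adjusted p 0.153), with quantile normalization (-0.16, adjusted p 0.0506) and with the replicate block (-0.15, adjusted p 0.116). The cause of these losses was not tested.

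Genes called higher, 148, were 89 at a mean of at least 50 and 95 to 195 with a library left out. Genes called lower, 65, were 42 at a mean of at least 50, 40 with no trend and 41 to 91 with a library left out. The 16 lncRNA genes called higher were 5 at a mean of at least 50, 7 at a pseudocount of 8, 8 with the replicate block and 5 to 19 with a library left out. The 7 called lower were 2, 4, 3 and 1 to 10, and 3 with no trend. A mean of at least 50 tests fewer genes, and a library left out uses fewer samples. Same-numbered libraries had correlations of deviations of 0.0058, 0.067 and -0.24, with a mean of -0.055 against 0.028 for different numbers. With 3 libraries per group these values cannot decide whether control and DHT libraries were paired. The replicate block also took past the threshold of 0.05 *Snhg14*, *Airn*, *Srsf3*, *Vim*, *Cd81*, *Nr3c1*, *Csf1r*, *Foxl2*, *Stmn2*, *Cryba4*, *Tpst2*, *Gm43221*, *5330411J11Rik*, *Gm4316* and *Gm43307*. No trend did so for most of these and for *Meg3* (adjusted p 0.0542), *Rian* (0.0789), *Tssc4*, *Hsd17b1* and *Cyp11a1*. Count tests in edgeR and DESeq2 on whole reads, listed as alternatives, were not run. Scaling moved the median of all genes by under 0.1.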
